A study of Homo sapiens with 6 samples.

Results

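The lysosome and autophagy genes described here are 44 genes of the 23459 in the count table. They encode lysosomal enzymes and membrane proteins, parts of the proton pump, autophagy proteins and the MiT/TFE transcription factors, and they were matched to the table by gene symbol. All 44 had a row in the table, and 43 passed the filter on low counts, as did 12510 genes in all. Expression was measured by 3′ mRNA-Seq in MCF10A, an untransformed human mammary epithelial cell line grown in medium with horse serum, insulin, hydrocortisone, cholera toxin and EGF. The cells of both groups are labelled WT. Both groups were transfected with 20 nM siRNA by lipofection. The siCtrl group received a non-targeting siRNA and the siYAP/TAZ group received siRNA against YAP and TAZ, the paired transcriptional coactivators that act at the end of the Hippo pathway (TAZ is encoded by WWTR1). Each group has 3 libraries, all from 1 cell line. The time after transfection and the make-up of the YAP and TAZ siRNAs are not given in the sources used here. The methods call the study's RNA-Seq samples biological replicates, while the labels of these libraries name no cultures. If they shared a culture, p-values would measure technical spread.

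Lysosomes are acidic organelles in which hydrolases break down proteins, glycans and lipids, and a V-type proton pump in their membrane keeps them acidic. Autophagy wraps cytoplasmic cargo in a double membrane and delivers it to the lysosome. The factors TFEB, TFE3 and MITF bind E-box sequences, in particular the CLEAR motif, that lie near the start of many lysosomal genes, and mTORC1 at the lysosomal surface holds them in the cytoplasm when nutrients are plentiful.

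The libraries held between 3175149 and 4317286 counts. Where a gene had 0 counts, up to 3 remain possible, or 0.680 to 0.992 CPM by library (CPM being the count divided by the scaled library total). This floor covers counting error only. The labels disagree for 2 libraries, siCtrl replicate 2 and siYAP/TAZ replicate 2, whose title and genotype entries both name the opposite group to the description that heads their column in the count table. The description was used. By it, both targeted genes were lower in every siYAP/TAZ library than in any siCtrl library. YAP1 was at 189, 204 and 210 CPM in siCtrl replicates 1, 2 and 3 and at 116, 118 and 112 CPM after siYAP/TAZ (log2 fold change -0.80 ± 0.12 SE, adjusted p = 0.0138). WWTR1 had 109, 109 and 102 against 70.5, 67.1 and 59.8 CPM (-0.69 ± 0.13, adjusted p = 0.0311, quasi-likelihood test of edgeR, adjusted by Benjamini-Hochberg over the 12510 genes). On the first principal component of log2 expression, siCtrl replicate 2 lay at 6.98, while the other siCtrl libraries lay at -40.7 and -33.3 and those with siYAP/TAZ between 9.18 and 32.2. The numbers of members called are given with and without siCtrl replicate 2, and so are the log2 fold changes of some genes.

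Markers of mammary epithelium were present in every library, with 2161 to 3796 counts of KRT5, and their summed level was 1801 to 2421 CPM in siCtrl and 1496 to 1800 CPM in siYAP/TAZ. Some lysosomal genes are abundant in macrophages, so leukocyte markers were examined too. Of the 7, TYROBP and LYZ had 0 counts in all 6 libraries, CD163 had at most 1, CD68 had 3 to 6 and PTPRC 2 to 10. CSF1R took nearly all of the list's summed level of 209 to 270 CPM in siCtrl and 245 to 294 CPM in siYAP/TAZ; its range in the annotation also holds RPL7P1, a pseudogene of an abundant ribosomal protein gene. Of the fibroblast markers, COL1A2 and COL3A1 had 0 counts and PDGFRA had 551 to 683. Among endothelial markers PECAM1, a surface adhesion protein, had 6, 4 and 4 counts in the siCtrl libraries against 14, 29 and 18 in those with siYAP/TAZ. KDR had 2, 2 and 1 against 4, 5 and 11 counts. For CDH5 (1, 2 and 0 against 1, 1 and 1) and VWF (4, 5 and 4 against 6, 4 and 4) the groups overlapped. The list's summed level, mostly PECAM1 in siYAP/TAZ, was 2.26 to 4.01 CPM in siCtrl against 5.67 to 12.9 CPM in siYAP/TAZ. The part of these differences in the results was not tested. In bulk libraries, a change in the make-up of the culture and a change in RNA per cell cannot be told apart.

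Each value below is a TMM-scaled CPM, which counts the ends of transcripts and is not divided by gene length, and each log2 fold change is siYAP/TAZ relative to siCtrl, with its SE after ±. Gene coordinates are GRCh37. Same-numbered libraries of the 2 groups deviated together across genes, though only weakly for replicate 3 (r of 0.43, 0.35 and 0.13 for replicates 1, 2 and 3). The pairs were taken from the replicate numbers. For this reason the fit with the replicate number as a block is given beside the fit without it wherever the call differs.

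The genes as a set tended to lie higher after YAP/TAZ depletion, with no single gene past the threshold in the unblocked fit. The median log2 fold change of the 43 tested members was 0.27, with quartiles of 0.10 and 0.68, and 36 of 43 (83.7%) were above 0. Over the 12510 genes tested the median was -0.00093 and 49.9% were above 0. With an adjusted p under 0.05 as the threshold, 0 members were higher and 0 lower by edgeR without the block, where 0.743% of all genes were called higher and 1.22% lower. An unadjusted p under 0.05 was reached by 14 members (32.6%) that were higher and 0 that were lower, where it was reached by 8.40% and 9.27% of all genes. DESeq2 called 6 members higher (ULK1, OPTN, CTSD, NEU1, PSAP and ATP6AP1) and 0 lower, where it called 1.88% of all genes higher and 2.47% lower. With the replicate block 12 members (27.9%) rose and 0 fell, where 4.66% of all genes rose and 5.44% fell. The 12 were GABARAP, ULK1, WIPI1, OPTN, LAMP1, CD63, CTSA, CTSD, GAA, NEU1, PSAP and ATP6AP1.

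The number of calls depended on siCtrl replicate 2. Without it, 13 members (30.2%) rose and 1, PPT1, fell, where 6.08% of all genes rose and 6.22% fell. The 13 share 10 genes with the 12 of the blocked fit; CD63 and GABARAP were not among them, and GABARAPL1, NBR1 and LAPTM5 were. In 26 of the 43 tested members (60.5%) siCtrl replicate 2 had the highest level of the siCtrl libraries, where this held for 39.2% of all genes. Leaving out siYAP/TAZ replicate 1 gave 1 call, OPTN, and leaving out any of the remaining libraries gave 0 by edgeR, with 10 to 14 higher at an unadjusted p under 0.05. Under those settings 6 to 36 of all genes were called higher, and 5.08% to 6.37% were higher at an unadjusted p under 0.05. The direction was also read within pairs. The siYAP/TAZ library lay above its siCtrl partner for 36, 30 and 36 of the 43 genes in pairs 1, 2 and 3, and in all 3 pairs for 24 genes (55.8%), where 23.3% of all genes did so. The lowest siYAP/TAZ library exceeded the highest siCtrl library for 18 members (41.9%), where 11.0% of all genes did so, and the reverse held for 1, CTSZ, where 11.1% of all genes did so.

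**Figure D1:**
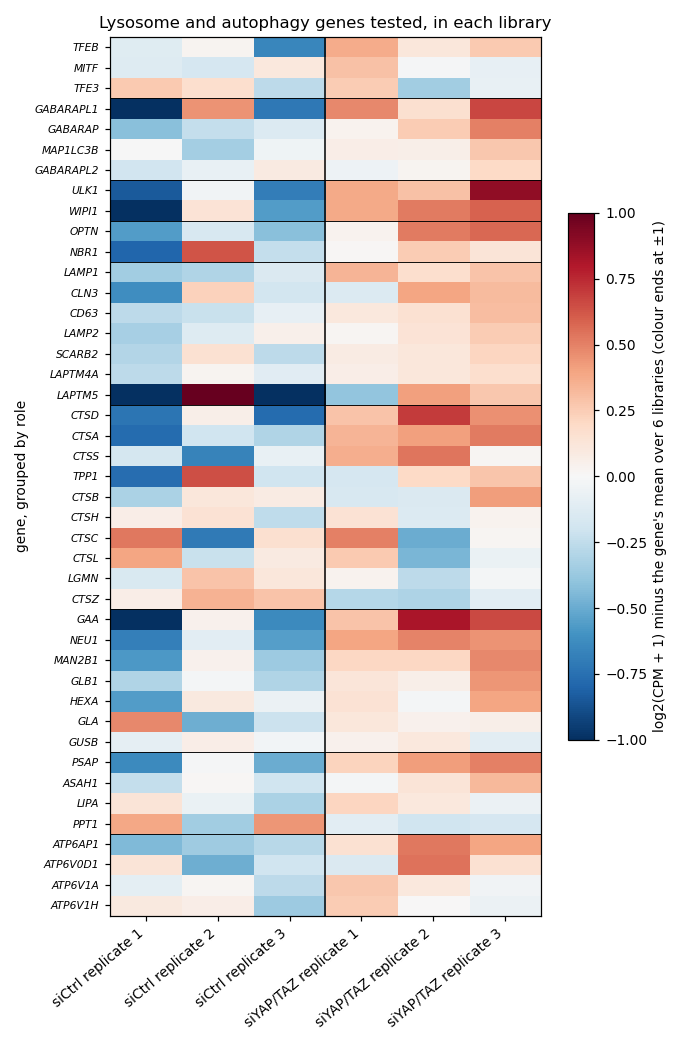
Level of each of the 43 tested lysosome and autophagy genes in each library, as log2(CPM + 1) minus the gene's mean over the 6 libraries, with genes grouped by role and red above and blue below the mean. Most rows turn from blue in siCtrl replicates 1 and 3 to red in siYAP/TAZ. In siCtrl replicate 2 many are near the mean, and NBR1, TPP1, LAPTM5, LGMN and CTSZ are above every siYAP/TAZ library.

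**Figure D2:**
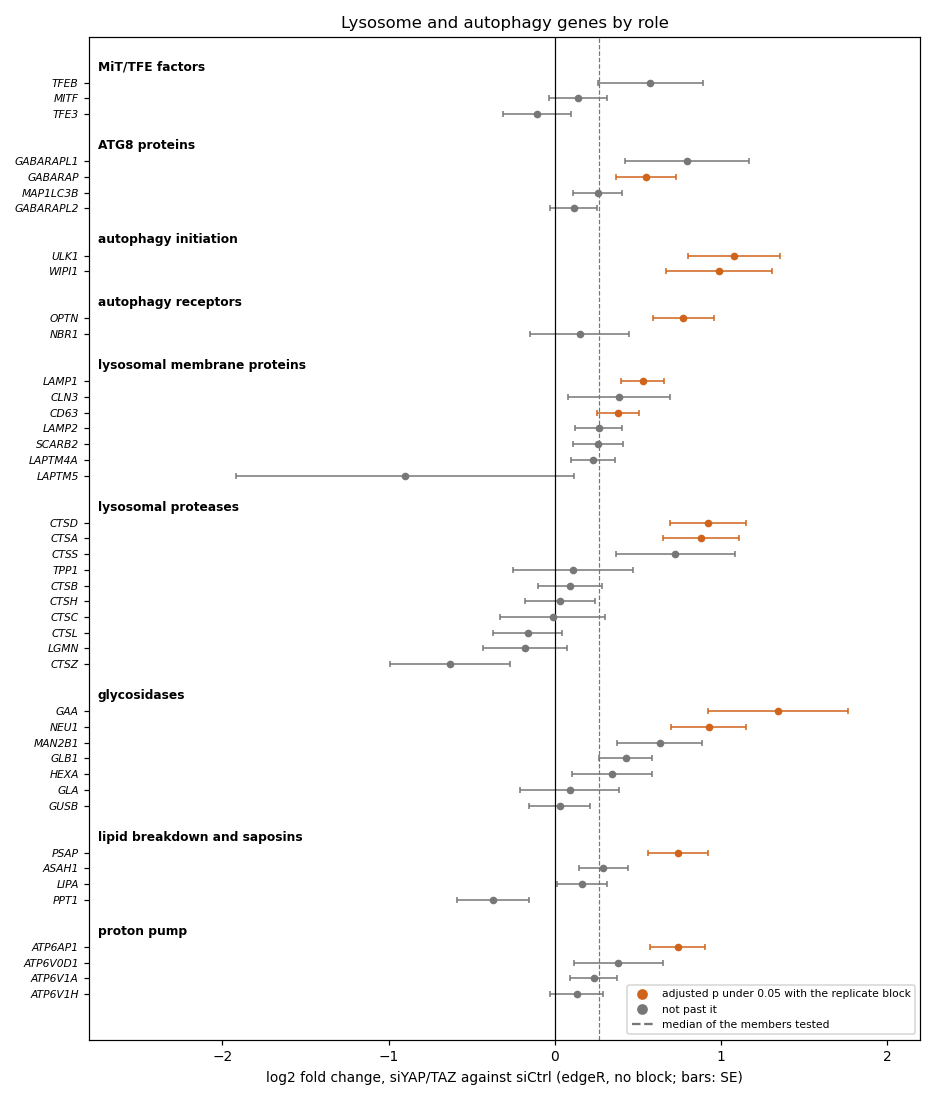
Log2 fold change of each tested gene, siYAP/TAZ against siCtrl, from the edgeR fit without the block, with bars of 1 SE and genes grouped by role. The 12 genes past an adjusted p of 0.05 with the replicate block are coloured, and the dashed line is the median of the 43, 0.27.

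The 3 MiT/TFE factors, which drive transcription of lysosomal genes, gave no call. TFEB mRNA was low, at 5.17, 5.86 and 3.27 CPM in siCtrl replicates 1, 2 and 3 and 7.71, 6.28 and 7.07 CPM in siYAP/TAZ. Every siYAP/TAZ library lay above the siCtrl libraries, by a narrow margin in pair 2, and the log2 fold change was 0.58 ± 0.32 (SE; adjusted p = 0.375, and 0.295 with the block). TFE3 had 59.7, 55.9 and 41.2 CPM in the siCtrl libraries against 59.2, 38.7 and 47.1 CPM in those with siYAP/TAZ (-0.11 ± 0.20, adjusted p = 0.831), with groups that overlapped. The log2 fold change of TFE3 was near 0 and took the other sign under some settings. MITF had 31.0, 30.2 and 36.7 against 41.9, 33.7 and 32.1 CPM (0.14 ± 0.17, adjusted p = 0.727), and its groups overlapped. Activity of these factors is set largely by their place in the cell, which mRNA counts do not measure.

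The start sites of the genes were then searched for the sequences that these factors and TEAD, the DNA-binding partner of YAP and TAZ, are known to bind. RefSeq promoters (GRCh38.p14, 250 bases before to 50 after the start) were found for 35 of the 44 genes, 34 of them tested, including 11 of the 12 that rose with the block. Both strands were read for CACGTG (the E-box core), TCACGTGA (the CLEAR core, which contains the E-box core) and GGAATG (the TEAD core). TCACGTGA was in 0.98% of all 35116 promoters and in 1.92% of those of genes tested. It was in 5 of the 34 (14.7%), of which 3 were among the 11 that rose with the block, CTSA, GAA and LAMP1, and 2 among the other 23, CLN3 and ATP6V0D1. The untested MCOLN1 also held it. CACGTG was in 10.2% of the promoters of genes tested, in 6 of the 11 (54.5%; these 3 and CD63, CTSD and NEU1) and in 2 of the other 23 (8.7%). GGAATG was in 10.6% of the promoters of genes tested, in 2 of the 11 (18.2%; ULK1 and OPTN) and in 4 of the other 23 (17.4%). A match is a description of the letters and not of binding, and none of these shares was tested. The 11 were set apart from the 23 by the blocked fit of these same data. In edgeR with all 6 libraries, the low-count filter and no block, no member passed the threshold. DESeq2, also without the block, called 6 members. Of the 3 with TCACGTGA, CTSA has reads that cannot be told apart from those of PLTP, a gene on the opposite strand. GAA reached the low-count filter mainly through siYAP/TAZ, the group in which it was higher. The promoters of the 3 genes that rose with the block and held TCACGTGA follow, 5′ to 3′, because they carry the motif of the factors named above. Capitals mark TCACGTGA. They lie at chr20:45891085-45891384 (CTSA), chr17:80101331-80101630 (GAA) and chr13:113296989-113297288 (LAMP1) of GRCh38.p14, all on the plus strand.
CTSA: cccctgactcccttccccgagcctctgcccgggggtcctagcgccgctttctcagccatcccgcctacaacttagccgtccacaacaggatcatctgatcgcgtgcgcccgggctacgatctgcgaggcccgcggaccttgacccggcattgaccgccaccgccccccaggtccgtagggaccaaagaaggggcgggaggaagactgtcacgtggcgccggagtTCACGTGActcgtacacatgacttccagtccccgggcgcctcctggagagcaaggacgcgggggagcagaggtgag
GAA: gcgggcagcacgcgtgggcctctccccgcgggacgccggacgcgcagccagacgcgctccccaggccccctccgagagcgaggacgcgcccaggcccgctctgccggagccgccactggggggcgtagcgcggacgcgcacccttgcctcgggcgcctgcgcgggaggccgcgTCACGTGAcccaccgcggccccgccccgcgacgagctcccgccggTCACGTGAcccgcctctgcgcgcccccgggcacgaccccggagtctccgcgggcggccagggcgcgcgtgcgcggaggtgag
LAMP1: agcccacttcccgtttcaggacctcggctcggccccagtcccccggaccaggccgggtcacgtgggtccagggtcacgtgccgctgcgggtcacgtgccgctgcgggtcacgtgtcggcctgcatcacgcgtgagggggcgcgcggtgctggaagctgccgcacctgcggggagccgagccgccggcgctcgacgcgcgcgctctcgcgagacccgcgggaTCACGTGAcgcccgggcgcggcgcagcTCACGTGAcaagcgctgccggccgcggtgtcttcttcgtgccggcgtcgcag

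The CTSA promoter held 1 copy, GAA 2 and LAMP1 2. The first copy began at position -26 in CTSA, -77 in GAA and -29 in LAMP1 relative to the start site. LAMP1 held 6 copies of CACGTG in all, the most of the 35.

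The autophagy initiation genes among the 44 are ULK1 and WIPI1. ULK1 (Entrez 8408; GRCh37 chromosome 12, 132379167 to 132407695, plus strand) encodes the kinase that triggers autophagosome formation. It had 10.3, 18.8 and 11.6 CPM in siCtrl replicates 1, 2 and 3 against 25.4, 23.8 and 36.4 CPM in siYAP/TAZ. All siYAP/TAZ libraries lay above all siCtrl libraries, with siCtrl replicate 2 the closest, and the log2 fold change was 1.08 ± 0.28 (SE; adjusted p = 0.0833, and 0.0232 with the block). WIPI1 (Entrez 55062; chromosome 17, 66417089 to 66453654, minus strand) binds phosphoinositides on the growing membrane. It had 5.17, 13.3 and 7.79 CPM in the siCtrl libraries against 15.9, 17.5 and 18.5 CPM in those with siYAP/TAZ, again with siCtrl replicate 2 the highest control. Its log2 fold change was 0.99 ± 0.32 (adjusted p = 0.154, and 0.0373 with the block). An exon of ARSG, with 15 to 32 counts per library, lies on the opposite strand at WIPI1, and whether the counting used strand is not given in the sources used here.

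The ATG8 proteins are ubiquitin-like proteins that are attached to the autophagosome membrane and recruit cargo receptors. GABARAP (Entrez 11337; chromosome 17, 7143327 to 7145768, minus strand) ran at 24.1, 27.5 and 29.7 CPM in the siCtrl libraries against 33.5, 39.0 and 46.8 CPM in those with siYAP/TAZ, with no overlap (log2 fold change 0.55 ± 0.18, adjusted p = 0.16, and 0.0498 with the block). A readthrough gene model shares exons with GABARAP in the annotation. Other protein-coding gene models on the same strand overlap exons of CTSD, CLN3, HEXA, GLB1, MAN2B1 and MCOLN1. Their part in the counts was not tested. GABARAPL1 had 8.04, 24.4 and 10.3 CPM in the siCtrl libraries against 24.9, 19.8 and 28.6 CPM in those with siYAP/TAZ. Its groups overlapped only through siCtrl replicate 2, and its log2 fold change of 0.80 ± 0.37 (adjusted p = 0.304, and 0.122 with the block) became 1.41 (adjusted p = 0.00651) without that library. MAP1LC3B, the gene of LC3B, had a log2 fold change of 0.26 ± 0.15 (adjusted p = 0.397), and its near-identical copy MAP1LC3B2 had 37 to 74 counts per library, so reads could be split between them. GABARAPL2 had 0.11 ± 0.14 (adjusted p = 0.727).

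The autophagy receptors tie ubiquitylated cargo to ATG8 proteins. OPTN (optineurin; Entrez 10133; chromosome 10, 13141449 to 13180308, plus strand) ran at 44.2, 58.6 and 48.8 CPM in the siCtrl libraries against 67.1, 94.5 and 97.9 CPM in those with siYAP/TAZ. The groups did not overlap, and its log2 fold change was 0.77 ± 0.18 (adjusted p = 0.0685, and 0.00593 with the block). NBR1 had 88.2, 238 and 130 CPM in the siCtrl libraries against 155, 183 and 168 CPM in those with siYAP/TAZ. Here siCtrl replicate 2 was the highest of all 6 libraries, the log2 fold change was 0.15 ± 0.30 (adjusted p = 0.834), and without that library it was 0.63 (adjusted p = 0.0385).

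Among lysosomal membrane proteins, the smallest adjusted p was that of LAMP1, the glycoprotein that lines the inner face of the membrane (Entrez 3916; chromosome 13, 113951554 to 113977987, plus strand). It had 67.5, 69.7 and 77.6 CPM in the siCtrl libraries against 109, 96.5 and 105 CPM in those with siYAP/TAZ. These groups were tight and well apart, with a log2 fold change of 0.53 ± 0.13 (adjusted p = 0.0721, and 0.0214 with the block). CD63 (Entrez 967; chromosome 12, 56119107 to 56123491, minus strand), a tetraspanin of late endosomes and lysosomes, had 191, 197 and 218 CPM in the siCtrl libraries against 247, 256 and 285 CPM in those with siYAP/TAZ. CD63 was higher within each pair by 1.29 to 1.31 times, and its log2 fold change was 0.38 ± 0.13 (adjusted p = 0.166, and 0.0469 with the block). LAMP2, the paralogue of LAMP1 that also serves chaperone-mediated autophagy, had 128, 148 and 168 CPM in the siCtrl libraries against 164, 178 and 193 CPM in those with siYAP/TAZ. Its groups overlapped slightly, and its log2 fold change of 0.27 ± 0.14 (adjusted p = 0.364) did not pass the threshold with the block either (0.147). LAPTM4A, the member with the highest CPM, had 308, 377 and 341 CPM in the siCtrl libraries against 387, 401 and 416 CPM in those with siYAP/TAZ, with no overlap but a small difference (0.23 ± 0.13, adjusted p = 0.40, and 0.206 with the block). SCARB2, the receptor that carries glucocerebrosidase to the lysosome, had 0.26 ± 0.15 (adjusted p = 0.407), and CLN3, a membrane protein lost in a childhood neuronal storage disease, had 0.39 ± 0.31 (adjusted p = 0.556).

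At the other 2 membrane genes the counts were low. LAPTM5, a lysosomal protein best known from blood cells, had 2, 58 and 3 counts in the siCtrl libraries against 9, 13 and 14 in those with siYAP/TAZ. Its log2 fold change of -0.90 ± 1.02 (adjusted p = 0.696) rested on siCtrl replicate 2 alone. Without that library the 5 siCtrl counts against 36 siYAP/TAZ counts gave a ratio of 4.83, with an exact 95% interval of 1.89 to 15.8 for counting error only, and an adjusted p of 0.0456. With 2 and 3 counts in the remaining siCtrl libraries, LAPTM5 entered that fit only through siYAP/TAZ, the group in which it was then higher, so its place among the 13 depended on the filter. MCOLN1, the calcium channel of the lysosome, failed the filter with 3, 3 and 4 counts in the siCtrl libraries against 7, 4 and 9 in those with siYAP/TAZ. The ratio of its summed counts was 1.93, with an exact 95% interval of 0.860 to 4.61, so no difference was detectable at this depth.

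The 10 lysosomal proteases were the most divided role: 6 had a log2 fold change above 0 and 4 below, with a median of 0.062. CTSD (cathepsin D, an aspartic protease; Entrez 1509; chromosome 11, 1773982 to 1785803, minus strand) ran at 79.6, 139 and 77.6 CPM in the siCtrl libraries against 162, 216 and 183 CPM in those with siYAP/TAZ. The siYAP/TAZ libraries were all higher, with siCtrl replicate 2 the closest control. The log2 fold change was 0.92 ± 0.23 (adjusted p = 0.0763), the blocked adjusted p was 0.00181, and the value without siCtrl replicate 2 was 1.25 (adjusted p = 0.0013). CTSA (protective protein, which holds neuraminidase in its complex; Entrez 5476; GRCh37 chromosome 20, 44518783 to 44527588, plus strand) ran at 8.62, 13.3 and 12.3 CPM in the siCtrl libraries against 19.7, 20.8 and 22.6 CPM in those with siYAP/TAZ. Its groups did not overlap (0.88 ± 0.23, adjusted p = 0.0854, and 0.0266 with the block). This result is uncertain because the 3′ part of CTSA overlaps an exon of PLTP, a phospholipid transfer gene on the opposite strand. PLTP had 27, 39 and 42 counts in the siCtrl libraries against 85, 59 and 81 in those with siYAP/TAZ, nearly the 30, 43, 49, 87, 63 and 83 counts of CTSA, so the reads of the 2 genes cannot be told apart.

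No call was made for the remaining proteases. The cysteine cathepsins CTSB, CTSH, CTSC and CTSL had log2 fold changes of 0.090, 0.033, -0.011 and -0.16, each smaller than its SE, and adjusted p-values of 0.733 to 0.991. Groups overlapped for all 4 of these. TPP1, a tripeptidyl peptidase, had 0.11 ± 0.36 (adjusted p = 0.904), with siCtrl replicate 2 at 20.7 CPM above every other library, and LGMN, the asparaginyl endopeptidase legumain, had -0.18 ± 0.25 (adjusted p = 0.764). CTSS and CTSZ were measured at 24 counts or fewer per library, and their log2 fold changes were 0.73 ± 0.36 (adjusted p = 0.326) and -0.63 ± 0.36 (adjusted p = 0.399). CTSZ was the member whose siYAP/TAZ libraries all lay below siCtrl. It reached the low-count filter in all 3 siCtrl and in 0 siYAP/TAZ libraries, so it was tested only through the group in which it was higher, and an exon of NELFCD with 71 to 104 counts lies on its opposite strand.

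The glycosidases remove sugars from glycoproteins, glycolipids and glycogen, and all 7 had a log2 fold change above 0, with a median of 0.43. NEU1 (neuraminidase, which removes sialic acid; Entrez 4758; chromosome 6, 31825436 to 31830682, minus strand) ran at 9.76, 15.1 and 10.8 CPM in the siCtrl libraries against 21.8, 23.5 and 22.6 CPM in those with siYAP/TAZ. The siYAP/TAZ libraries were nearly equal and clear of all controls (0.93 ± 0.22, adjusted p = 0.0715, and 0.02 with the block). GAA (acid alpha-glucosidase, which digests glycogen; Entrez 2548; chromosome 17, 78075332 to 78093680, plus strand) ran at the largest log2 fold change of the 43, 1.34 ± 0.42, on few reads. It had 5, 15 and 10 counts in the siCtrl libraries against 25, 26 and 28 in those with siYAP/TAZ, or 1.44, 4.63 and 2.51 against 5.67, 8.59 and 7.62 CPM. Its adjusted p was 0.14, and 0.0348 with the block. GAA reached the low-count filter in 1 siCtrl and in all 3 siYAP/TAZ libraries, so its entry among the tested genes depended on the group in which it was higher. The lysosomal alpha-mannosidase MAN2B1 and the beta-galactosidase GLB1 had no overlap between groups and log2 fold changes of 0.63 ± 0.26 (adjusted p = 0.245, and 0.132 with the block) and 0.43 ± 0.16 (adjusted p = 0.211, and 0.0994 with the block). HEXA, GLA and GUSB, which break down gangliosides, other glycosphingolipids and glycosaminoglycans, had 0.35, 0.091 and 0.032 with overlapping groups.

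Of the 4 genes of lipid breakdown, PSAP stood highest and differed most. PSAP (Entrez 5660; chromosome 10, 73576055 to 73611008, minus strand) encodes prosaposin, the precursor of the saposins that present sphingolipids to hydrolases. It had 208, 323 and 230 CPM in siCtrl (254 ± 60.9, SD, n = 3) and 378.5, 434 and 462 CPM in siYAP/TAZ (425 ± 42.5, SD, n = 3). No siYAP/TAZ library fell within the siCtrl range, and siCtrl replicate 2 was again the nearest control. The log2 fold change was 0.74 ± 0.18 (adjusted p = 0.0721, and 0.00501 with the block), and 0.96 without siCtrl replicate 2 (adjusted p = 0.00278). PPT1, which removes palmitate from proteins, went the other way, with 45.7, 27.2 and 47.5 CPM in the siCtrl libraries against 32.2, 30.1 and 30.7 CPM in those with siYAP/TAZ. In PPT1 siCtrl replicate 2 was the lowest of all libraries, and the log2 fold change of -0.37 ± 0.22 (adjusted p = 0.405) became -0.58 without it (adjusted p = 0.0315). ASAH1 (acid ceramidase) and LIPA (lysosomal acid lipase) had 0.29 ± 0.15 (adjusted p = 0.336) and 0.17 ± 0.15 (adjusted p = 0.619).

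**Figure D3:**
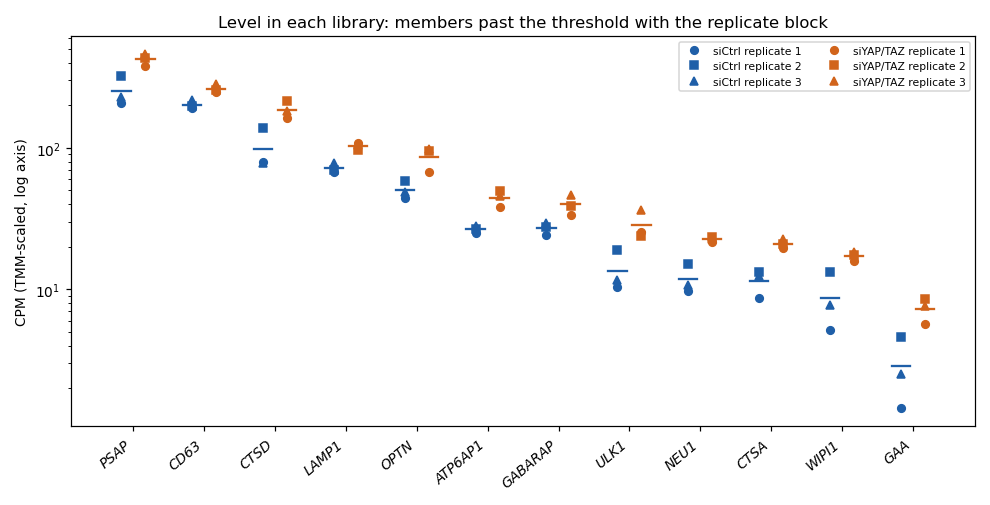
CPM on a log axis of the 12 genes past an adjusted p of 0.05 with the replicate block, in each library, with lines at the group means. No siYAP/TAZ point of a gene falls within that gene's siCtrl range, and siCtrl replicate 2 (blue squares) is the highest control for 8 of the 12.

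Of the 4 proton pump genes, none passed the threshold in edgeR with all 6 libraries, the low-count filter and no block. ATP6AP1 passed it with the block, and also in DESeq2 without the block (adjusted p = 0.036). ATP6AP1 (Entrez 537; chromosome X, 153656979 to 153664862, plus strand), an accessory subunit, had 24.99, 26.5 and 28.1 CPM in the siCtrl libraries against 38.3, 49.9 and 45.4 CPM in those with siYAP/TAZ. Controls varied little, siCtrl replicate 2 included, and the log2 fold change was 0.74 ± 0.16 (adjusted p = 0.0559, and 0.014 with the block). With the same log2 fold change of 0.74 without siCtrl replicate 2 (adjusted p = 0.0243), the gap at ATP6AP1 did not rest on that library. ATP6V0D1, of the membrane sector, had 0.38 ± 0.27 (adjusted p = 0.498). In the cytoplasmic sector, the catalytic subunit ATP6V1A had 0.23 ± 0.14 (adjusted p = 0.423), and ATP6V1H, which regulates it, had 0.13 ± 0.16 (adjusted p = 0.718). Of 14 further pump genes tested from a separate list, an unadjusted p under 0.05 was reached by 2 that were higher (14.3%, where 8.40% of all genes were) and 0 that were lower (where 9.27% were), none was past the threshold in edgeR with or without the block, and the median was 0.078.

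Summed over the 44 genes, the transcripts made up 2600, 3032 and 2685 CPM in siCtrl replicates 1, 2 and 3 (2773 ± 229, SD, n = 3) and 3378, 3388 and 3635 CPM in siYAP/TAZ (3467 ± 146, SD, n = 3). The 2 groups did not overlap in the sum, and the same held for 7 of the 9 roles. The autophagy receptors overlapped, at 132 to 297 CPM in siCtrl and 222 to 278 in siYAP/TAZ, as did the MiT/TFE factors, at 81.2 to 95.9 and 78.7 to 109 CPM. The lipid breakdown genes had a mean of 456 CPM in siCtrl and 644 CPM in siYAP/TAZ, a sum in which PSAP is the major part. The same means were 128 ± 14.3 and 174 ± 14.6 CPM for glycosidases, 559 ± 13.5 and 650 ± 52.6 CPM for proteases, and 867 ± 77.4 and 1067 ± 55.1 CPM for membrane proteins (SD, n = 3). Among the proteases, CTSD alone had means of 98.6 CPM in siCtrl and 187 CPM in siYAP/TAZ. The median log2 fold change of the 10 proteases was 0.062. The sums were not tested, and a share of non-overlapping sums over all genes was not worked out.

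**Figure D4:**
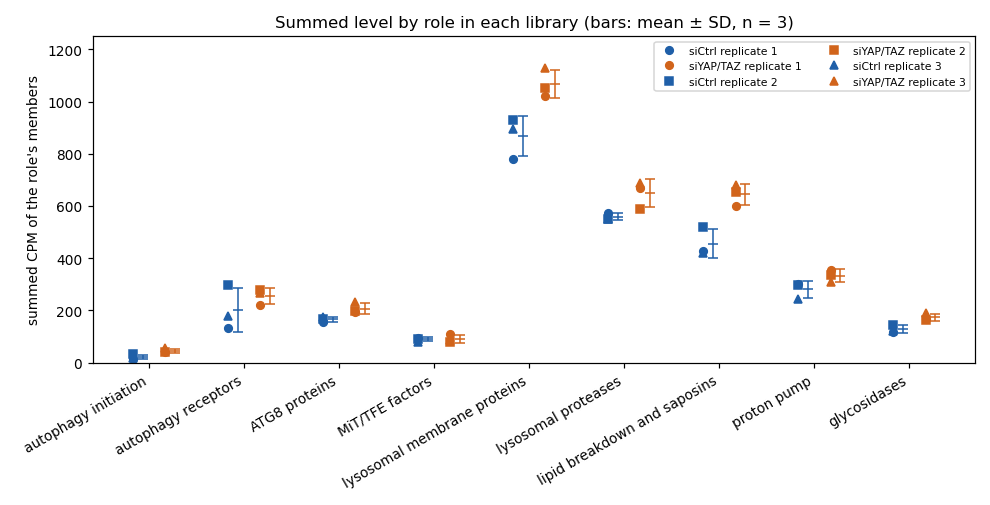
Summed CPM of the genes of each role in each library, with bars at the mean ± SD of 3 libraries. The siYAP/TAZ points lie above the siCtrl points in every role except the autophagy receptors and the MiT/TFE factors, whose groups overlap.

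Other genes of the same pathways were read from a list of 118, of which 108 were tested. Their median log2 fold change was 0.21, and 75 of 108 (69.4%) were above 0. Without the block 1 gene rose (0.926%, near the 0.743% of all genes) and 0 fell by edgeR (where 1.22% of all genes fell). An unadjusted p under 0.05 was reached by 19 that were higher (17.6%, where 8.40% of all genes were) and 3 that were lower (2.78%, where 9.27% were). DESeq2 called 3 higher and 1 lower, where it called 1.88% and 2.47% of all genes. With the block 8 rose (7.41%, where 4.66% of all genes rose) and 2 fell (1.85%, where 5.44% fell). The gene that rose in both fits was SQSTM1, which encodes p62, a receptor that links ubiquitylated cargo to ATG8 proteins and is itself degraded by autophagy. SQSTM1 had 192, 236 and 128 CPM in the siCtrl libraries against 454, 364 and 458 CPM in those with siYAP/TAZ, a wide gap between the groups. Its log2 fold change was 1.20 ± 0.22 (adjusted p = 0.0288, and 0.00288 with the block). The unblocked call was lost when any 1 library other than siCtrl replicate 2 was left out, with adjusted p-values of up to 0.152.

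The further genes past the threshold with the block were mostly enzymes. CTSF, a cysteine cathepsin, had 1.72, 4.63 and 3.77 CPM in the siCtrl libraries against 7.25, 9.59 and 14.4 CPM in those with siYAP/TAZ (log2 fold change 1.61 ± 0.41, adjusted p = 0.081, and 0.0111 with the block). SMPD1, the acid sphingomyelinase, had 4.31, 4.63 and 3.02 against 12.01, 6.94 and 10.6 CPM (1.32 ± 0.33, adjusted p = 0.0766, and 0.031 with the block). Both genes were low in every library, and neither overlapped between groups. The cathepsin CTSO (0.90), the GM2 activator GM2A (0.67), the phosphotransferase subunit GNPTAB that tags enzymes for the lysosome (0.60) and the autophagy receptor CALCOCO2 (0.54) had blocked adjusted p-values of 0.0131 to 0.0422. Without the block their adjusted p-values were 0.0774 for CTSO, 0.253 for GM2A, 0.108 for GNPTAB and 0.274 for CALCOCO2, and the groups overlapped for GM2A and CALCOCO2. Those that fell with the block were FUCA1, a fucosidase, at 37.9, 43.5 and 26.4 against 22.0, 21.5 and 12.5 CPM (-0.94 ± 0.27, adjusted p = 0.107, and 0.00726 with the block), and ULK2, a paralogue of ULK1. ULK2 had 15.2, 14.5 and 19.3 CPM in the siCtrl libraries against 9.75, 6.94 and 7.89 CPM in those with siYAP/TAZ (-0.99 ± 0.25, adjusted p = 0.0785, and 0.0294 with the block). The 2 ULK kinase genes thus had log2 fold changes of opposite sign. By group, the 24 tested enzymes and activators of this list had a median of 0.49, the 12 sorting and fusion genes 0.23, the 13 signalling genes 0.23, the 12 membrane proteins 0.22, the 4 receptors 0.45 and the 29 genes of the autophagy machinery 0.00041. Of the machinery genes 15 were above 0 and 14 below, so the core autophagy genes of this list were evenly split.

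**Figure D5:**
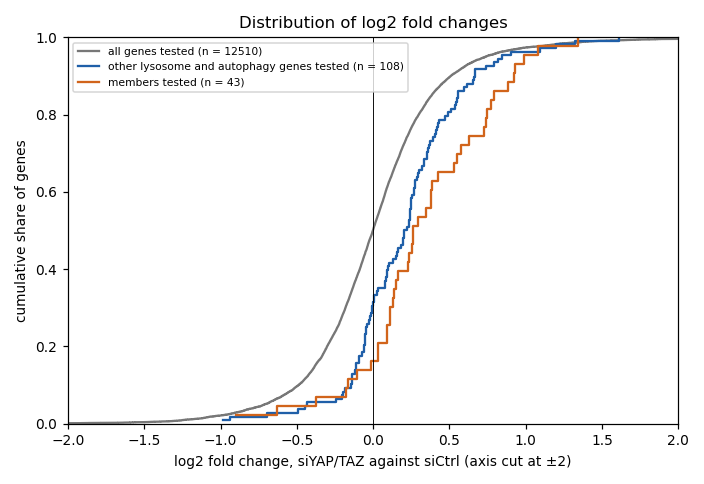
Cumulative share of genes by log2 fold change, siYAP/TAZ against siCtrl, for all 12510 genes tested, the 108 other lysosome and autophagy genes and the 43 tested members. The curve of the 43 lies to the right of the curve of all genes over most of its length, and the medians are 0.27 for the 43, 0.21 for the 108 and -0.00093 for all genes.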

How the data were processed

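The authors deposited raw read counts, not normalised, in 1 table of 6 libraries with genes named by Entrez ID. Per the labels, libraries were made with the QuantSeq 3′ mRNA-Seq FWD kit; the submitters' processing notes name cutadapt 4.2, Bowtie2 2.3.5.1 and hg19. Gene annotation and strand use in counting are not given in the sources used here. The table held 0 unnamed rows and 0 unmatched columns, and 23308 IDs (99.66% of counts) matched a RefSeq symbol.

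Counts were tested with edgeR 4.0.16 (R 4.3.3; glmQLFit and glmQLFTest, group only, after filterByExpr with its defaults and TMM factors), with Benjamini-Hochberg adjustment over 12510 genes that held 99.55% of counts. SEs were derived from the fold change and its F statistic. The alternatives tried were no filter, DESeq2 1.42.0, scaling by library size or RLE, a mean of at least 50 counts, the replicate block, groups by title, both disagreeing libraries left out, and each library left out. The script was tested on simulated counts. Replicates were compared before averaging, and none were repeats of another (chi-square per degree of freedom 5.37 to 17.4 within groups).

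Replicate numbers come from the description field. Deviations from group means correlated across genes between same-numbered libraries, with r of 0.43, 0.35 and 0.13 for replicates 1, 2 and 3, all over 0.1. The numbers were therefore treated as pairs, although genes are not independent of each other.

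The members, the gene lists and the tests were chosen with earlier results of these data known. Values in every library were given for members past an adjusted p of 0.05 with the block or without siCtrl replicate 2, the 3 MiT/TFE factors and the 5 members with the highest mean CPM; of the other list, values were given for genes past it with or without the block, except 1 gene that is not reported here. Values in single libraries at other members were chosen after they were seen. Of the 43 tested members, 39 reached the filter in every library; LAPTM5, CTSS, CTSZ and GAA did not. Coordinates are from GENCODE 44 lifted to GRCh37 (hg19), and promoter sequences from RefSeq GRCh38.p14, matched by symbol.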

Additional observations from a re-analysis of the deposited data

How the results depend on the processing

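By edgeR, 0 of the lysosome and autophagy genes were called higher; DESeq2 gave 6, no low-count filter 6, the replicate block 12 and leaving out both libraries with disagreeing labels 10. Leaving out 1 library gave 0 to 13 higher (13 without siCtrl replicate 2) and 0 to 1 lower. With groups by title 0 were called, with 1 higher at an unadjusted p under 0.05. Of the other list, 1 gene was higher and 0 lower; DESeq2 gave 3 and 1, no filter 3 and 1, the block 8 and 2, groups by title 0 and 0 (3 and 0 at an unadjusted p under 0.05), both libraries left out 12 higher, and 1 library left out 0 to 14 higher and 0 to 1 lower. Over all genes, 93 were higher and 152 lower; DESeq2 gave 250 and 328, no filter 257 and 299, the block 583 and 680, groups by title 0 and 0, both libraries left out 592 and 591, and 1 library left out 6 to 781 and 10 to 798. The low ends came when siCtrl replicate 3 (6 and 10) or siYAP/TAZ replicate 3 (7 and 11) was absent, and counts were also lower without siCtrl replicate 1 (29 and 63) and siYAP/TAZ replicate 2 (36 and 35). The median log2 fold change of the 43 genes, 0.27, was 0.40 with both libraries left out and 0.23 to 0.42 with 1 library left out. It was 0.25 to 0.28 under the other settings except groups by title, which gave 0.22. RLE scaling, library size alone and DESeq2 changed the sign of 0 of the 43 genes and moved the median of all genes to no lower than -0.020. Of the 21 genes chosen by the stated rules for values in every library, 18 kept their direction under every setting run. Most of the 21 were chosen by a call in 1 of these fits, which favours a stable direction. Of all members tested, 6 changed sign with groups by title, 3 with both libraries left out and 1 to 7 with 1 library left out. The log2 fold change of NBR1 was -0.12 without siCtrl replicate 1 and up to 0.63 with 1 other library left out. That of LAPTM5 was 2.10 with groups by title and 2.25 without siCtrl replicate 2, where a count of 58 was moved or removed, and as low as -1.46 with 1 other library left out. That of TFE3 was 0.21 with groups by title, 0.084 with both libraries left out, 0.0032 without siCtrl replicate 1, 0.030 without siYAP/TAZ replicate 2 and as low as -0.28 with 1 other library left out. The causes were not tested. Low counts limit GAA, LAPTM5, CTSS, CTSZ and MCOLN1. The block changed no other call beyond those printed beside the results.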

Other observations

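Some of these genes differed more between replicate numbers than between the groups. CTSC, the cathepsin that activates serine proteases of granules, had 142, 59.9 and 110 CPM in siCtrl replicates 1, 2 and 3 against 140, 69.4 and 99.8 CPM in siYAP/TAZ replicates 1, 2 and 3. CTSL had 183, 119 and 148 CPM in the siCtrl libraries against 167, 101 and 133 CPM in those with siYAP/TAZ. In both genes replicate 2 was the lowest and replicate 1 the highest of either group, and they were picked after their values were seen.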
